A study of Mus musculus with 6 samples.

Results

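The 45 genes described here act in, or hold back, the step from G1 into S phase and the copying of DNA. They were listed by their known roles, with earlier results of these data known, and were found by gene symbol among the 54331 genes listed for this experiment. They fall into 13 G1 cyclins, cyclin-dependent kinases (CDKs), E2F factors and pocket proteins, 15 genes of origin licensing and the replicative helicase, 10 genes of the sliding clamp, the polymerases and Okazaki fragment joining, 4 genes of deoxynucleotide supply and 3 genes of the replication checkpoint. RNA was sequenced from mouse embryonic fibroblasts (MEFs) undergoing reprogramming at 10 days post infection (dpi). The MEFs came from several pooled male E13.5 embryos of Oct4-EGFP transgenic mice on a mixed C57BL/6, DBA/2 and ICR background. All cells had been transduced with Oct4, Sox2 and Klf4 together with AKT-MER, a myristoylated AKT kinase fused to a modified estrogen receptor that is switched on by 4-hydroxytamoxifen (4OHT). The OSKA + 4OHT group (3 wells) received 4OHT, and the OSKA - 4OHT group (3 wells) received a mock administration, so that AKT-MER was present but not activated. No cells given 4OHT without AKT-MER were analysed here, so an effect of 4OHT itself and of AKT activation cannot be told apart in these samples. The paper described limited effects of 4OHT on such cells, in colony numbers and in expression measured by microarray. The wells came from pooled embryos and a shared transduction, and p-values therefore measure only the spread between wells, which may be technical.

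In G1, growth signals raise the D-type cyclins, which bind CDK4 and CDK6 and phosphorylate the retinoblastoma protein and its relatives (the pocket proteins). E2F factors released in this way switch on genes for cyclin E, which activates CDK2, and for much of the replication machinery. Origins are marked by the origin recognition complex (ORC), and CDC6 and CDT1 load the ring of MCM proteins there. In S phase CDC45 and the GINS complex join the ring to form the active helicase, after which clamp loader, clamp, polymerases, flap nuclease and ligase copy the DNA. Embryonic stem cells and induced pluripotent stem cells are known for a short G1 and a large share of cells in S phase, whereas fibroblasts spend longer in G1.

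Levels are given as TPM, transcript abundances scaled for transcript length, and a set of 3 values is in the order of replicates 1 to 3. The TPM of each well add up to the same total and keep no sequencing depth, so no counting error is given. Between 15814 and 18230 genes were above 0 in a well, with the fewest in OSKA - 4OHT replicate 1. The 15382 genes whose mean reached 1 TPM were tested with limma on log2(TPM + 0.5). Calls were made where the adjusted p (Benjamini-Hochberg, over all 15382) was under 0.05. Every log2 fold change is OSKA + 4OHT over OSKA - 4OHT on the log2(TPM + 0.5) scale, and understates the change of low genes. Over all tested genes, 3.52% were called higher and 1.97% lower in the OSKA + 4OHT group, and the median log2 fold change was 0.14. This median was 0.04 when the wells were rescaled by trimmed means of their log ratios, where 50.1% of the called genes were higher rather than 64.1%. All 45 members had a symbol match, passed the filter on low values and were above 0 in every well. *E2f2* averaged 0.919 TPM without 4OHT and passed the filter only through the wells with it, so its place in the counts below is no support.

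Promoter sequences of the members are shown first, because E2F factors are themselves members and their binding letters could be searched. RefSeq promoter windows (GRCm38.p6), each from 250 bases before to 50 bases after a transcript start, were found for 35 of the 45 members, in 42 windows. Windows for *Ccnd1*, *Ccnd2*, *Ccne2*, *Rb1*, *Mcm4*, *Gmnn*, *Gins1*, *Gins2*, *Rfc2* and *Pole* were not used here. The 3 strings TTTCCCGC, TTTGGCGC and TTTCGCGC, spelled versions of the E2F consensus, were searched on both strands. At least 1 of them was found in 16 of the 35 members (45.7%), against 573 of 27025 genes of the same table (2.12%) and 606 of its 32851 windows (1.84%). Among 70 further replication genes described with the results, they were found in 14 of the 56 that have a window (25.0%). By class they were found in 4 of 9 G1 genes (*Cdk2*, *E2f2*, *E2f3* and *Rbl1*), 7 of 11 licensing and helicase genes (*Cdc6*, *Cdt1*, *Mcm3*, *Mcm5*, *Mcm6*, *Mcm7* and *Orc1*), 4 of 8 clamp and polymerase genes (*Lig1*, *Pola1*, *Pold1* and *Rfc3*), 0 of 4 nucleotide genes and 1 of 3 checkpoint genes (*Clspn*). The letters CCAAT, on either strand, were in 60.0% of the members and 41.1% of all genes, and the letters TTTGAA of the cell cycle homology region were in 14.3% and 20.2%. A match describes the sequence only, and a window without a match says nothing about binding.

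Windows of 6 members follow, each 5′ to 3′ on the strand of its gene, with every match to the 3 strings in capitals. *Cdk2* and *Lig1* are shown as the called members that hold a match, *Orc1* for the widest spread of values among the wells, and *Mcm5*, *Mcm6* and *Mcm7* as subunits of a single ring. Positions are counted from the transcript start, whose first base is 1 and is preceded by base -1, and refer to the leftmost base of the match. In *Cdk2* (chr10:128705002-128705301, minus strand) TTTCCCGC stands on the opposite strand at -140. In *Lig1* (chr7:13278576-13278875, plus strand), whose other 2 windows hold no match, TTTCGCGC stands on the opposite strand at 27. In *Orc1* (chr4:108579204-108579503, plus strand) TTTCGCGC stands on the opposite strand at -27. In *Mcm5* (chr8:75109259-75109558, plus strand) TTTCGCGC at -153 overlaps TTTGGCGC, read on the opposite strand, at -149. In *Mcm6* (chr1:128359656-128359955, minus strand) TTTGGCGC at -110 overlaps TTTCGCGC, read on the opposite strand, at -106, and TTTGGCGC is found again at -47. In *Mcm7* (chr5:138171834-138172133, minus strand) TTTCCCGC stands on the opposite strand at -165 and TTTCGCGC at 17, and its second window holds no match.
Cdk2: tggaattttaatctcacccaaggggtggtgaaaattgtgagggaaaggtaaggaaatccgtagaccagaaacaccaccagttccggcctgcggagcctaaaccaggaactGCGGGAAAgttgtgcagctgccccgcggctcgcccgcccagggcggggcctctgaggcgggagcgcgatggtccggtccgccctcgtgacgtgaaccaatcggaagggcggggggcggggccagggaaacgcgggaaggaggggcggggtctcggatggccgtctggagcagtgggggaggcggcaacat
Lig1: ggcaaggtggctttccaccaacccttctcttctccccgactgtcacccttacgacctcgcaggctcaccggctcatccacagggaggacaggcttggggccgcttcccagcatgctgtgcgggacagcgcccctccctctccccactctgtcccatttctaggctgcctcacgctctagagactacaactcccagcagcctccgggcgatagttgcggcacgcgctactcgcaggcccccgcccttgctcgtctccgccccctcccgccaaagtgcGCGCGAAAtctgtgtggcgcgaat
Orc1: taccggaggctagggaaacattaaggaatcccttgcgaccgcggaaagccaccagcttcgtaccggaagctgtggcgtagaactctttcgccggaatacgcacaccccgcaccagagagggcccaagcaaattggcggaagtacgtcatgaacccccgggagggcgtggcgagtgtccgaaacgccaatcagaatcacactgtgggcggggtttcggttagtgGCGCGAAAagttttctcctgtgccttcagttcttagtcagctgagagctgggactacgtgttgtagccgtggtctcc
Mcm5: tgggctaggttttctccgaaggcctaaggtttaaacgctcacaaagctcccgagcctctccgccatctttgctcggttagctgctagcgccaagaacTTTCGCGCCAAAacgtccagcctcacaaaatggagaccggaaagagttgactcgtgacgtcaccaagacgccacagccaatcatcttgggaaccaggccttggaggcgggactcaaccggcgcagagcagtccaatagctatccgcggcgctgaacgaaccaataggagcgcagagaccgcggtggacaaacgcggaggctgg
Mcm6: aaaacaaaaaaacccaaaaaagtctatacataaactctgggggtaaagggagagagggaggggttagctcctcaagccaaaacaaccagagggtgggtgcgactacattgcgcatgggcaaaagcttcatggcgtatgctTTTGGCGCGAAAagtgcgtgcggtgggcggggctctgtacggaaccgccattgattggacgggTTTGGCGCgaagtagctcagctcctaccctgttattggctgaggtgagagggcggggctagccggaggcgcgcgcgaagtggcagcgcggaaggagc
Mcm7: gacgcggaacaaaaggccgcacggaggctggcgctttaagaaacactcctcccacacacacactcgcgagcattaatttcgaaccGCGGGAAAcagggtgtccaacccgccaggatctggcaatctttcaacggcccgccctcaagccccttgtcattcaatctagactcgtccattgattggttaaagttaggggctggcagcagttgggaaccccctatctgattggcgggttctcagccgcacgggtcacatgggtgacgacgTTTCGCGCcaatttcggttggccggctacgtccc

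Across the 45 members, 7 were called higher in the OSKA + 4OHT group (*Cdk2*, *Orc6*, *Cdc45*, *Gins2*, *Lig1*, *Rrm2* and *Tk1*) and 1 was called lower (*Cdk6*), beside the 3.52% and 1.97% of all tested genes. With a log2 fold change above 1 as well, 6 members were called higher, beside 2.87% of all tested genes. Fold changes were above 0 for 40 members, beside 59.3% of all tested genes, and below 0 for *Ccnd1*, *Ccnd2*, *Cdk6*, *Rb1* and *Rrm1*. Their median was 0.75, beside 0.14 for all tested genes, and it was 0.64 with trimmed mean rescaling and 0.60 with quantile normalization. The wells of the groups did not overlap in 24 members that were higher, beside 18.1% of all tested genes, and in 1 member that was lower, beside 10.0%. In the other 20 members the wells overlapped. An unadjusted p under 0.05 was reached by 25 members in the higher direction and 1 in the lower, beside 14.1% and 7.18% of all tested genes. The median log2 fold change was 0.36 in the G1 class, 0.97 in the licensing and helicase class, 0.84 in the clamp and polymerase class, 0.75 in the nucleotide class and 0.70 in the checkpoint class. With a well left out, the median of the G1 class ran from 0.086 to 0.62. That of the nucleotide class ran from 0.42 to 0.91, and that of the checkpoint class from 0.33 to 0.90. The ranges were 0.76 to 1.07 for licensing and helicase genes and 0.72 to 0.96 for clamp and polymerase genes.

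Calls were lost under several settings. With all 6 wells, the members called higher were *Orc6*, *Gins2* and *Rrm2* without the filter on low values, and *Cdc45* and *Gins2* without a variance trend. *Cdk6* was called in neither of these fits. With the replicate number as a block, 0 members were called in either direction, and 47 genes over the whole table. The numbers were not taken to pair the wells, for the reason given under the processing. When each of the 6 wells was left out in turn, *Gins2* and *Lig1* stayed under an adjusted p of 0.05 only without OSKA - 4OHT replicate 2, and *Rrm2* only without OSKA - 4OHT replicate 3. *Cdk2*, *Orc6*, *Cdc45*, *Tk1* and *Cdk6* were not under 0.05 in any of these 6 fits, whose adjusted p ranged from 0.0569 to 0.157 over these 5 genes. The direction of all 8 called members was kept in each of the fits. Except for *Rrm2*, the called members overlap genes on the opposite strand (for example *Cdk2* and Pmel, *Orc6* and Vps35, or *Cdc45* and Ufd1). The library kit keeps the strand, but whether the quantification used it was not given in the sources used here. Genes on the same strand overlap *Rb1*, *Cdt1*, *Mcm7*, *Pola1*, *Pold1*, *Pole*, *Rrm1* and *Clspn* (microRNA genes among them), and parts of the longest transcripts of *Cdc6* (26.2%), *Tyms* (17.4%) and *Ccnd3* (10.8%) are similar to a pseudogene or another predicted gene, so these values are less certain.

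**Figure D1:**
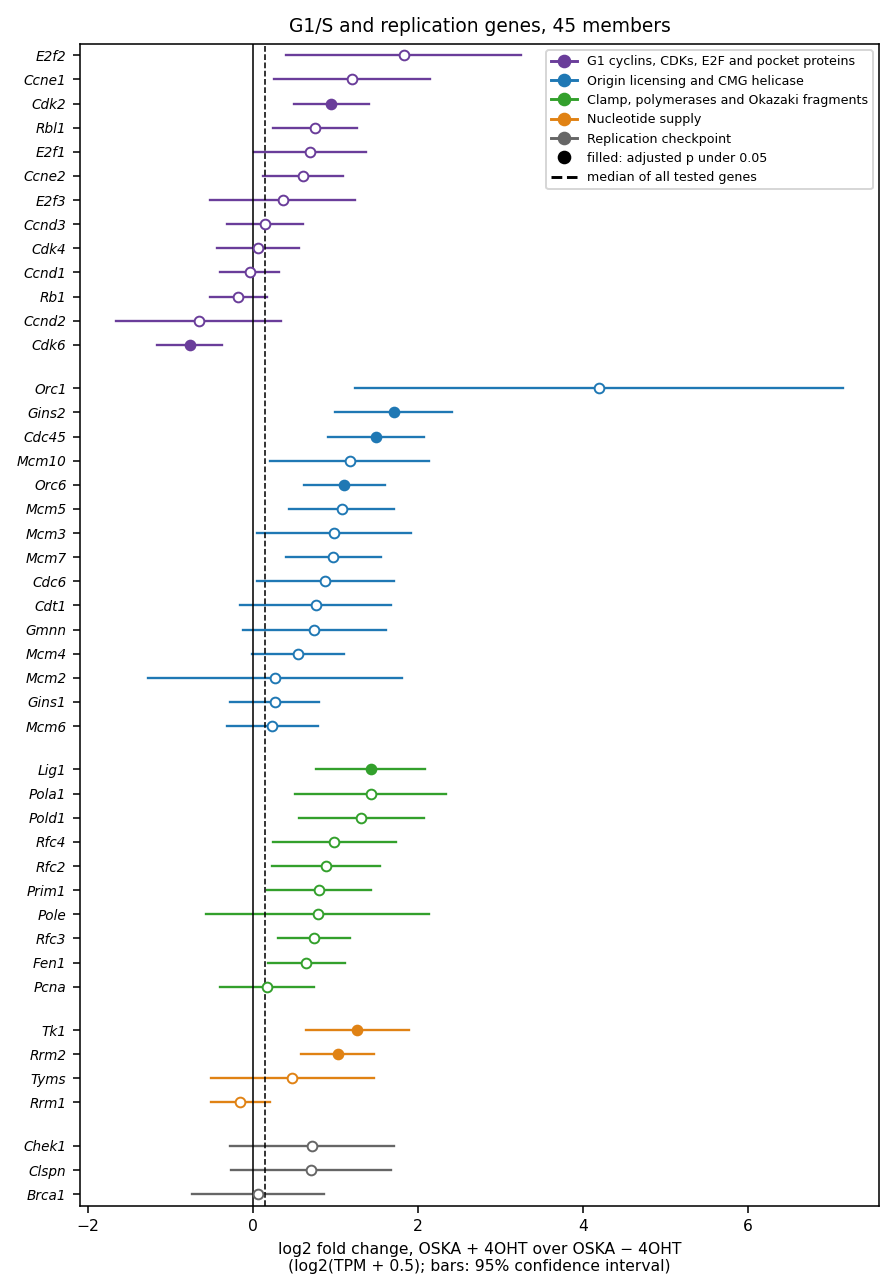
Log2 fold change of each of the 45 members, OSKA + 4OHT over OSKA - 4OHT, on log2(TPM + 0.5), with bars for the 95% confidence interval, colours for the classes and filled points for an adjusted p under 0.05. Points lie to the right of 0 for 40 members, the 8 filled points are the called members, and *Orc1* has the widest interval (1.23 to 7.15).

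**Figure D2:**
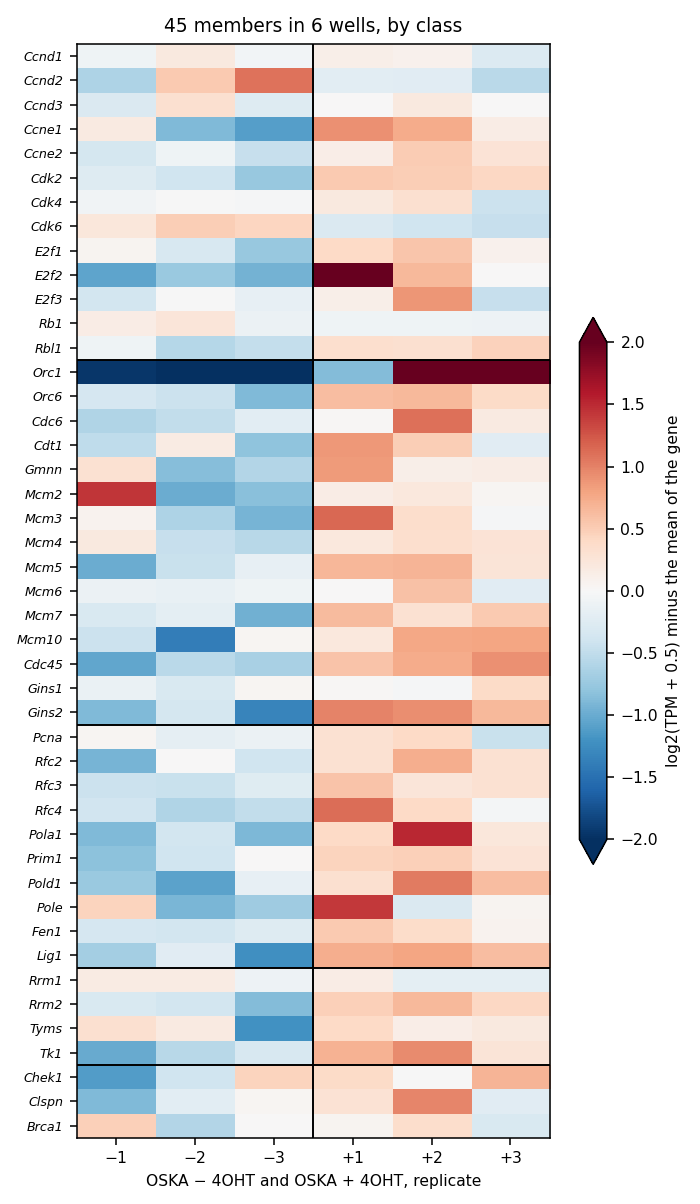
Level of the 45 members in each of the 6 wells as log2(TPM + 0.5) minus the mean of the gene, with OSKA - 4OHT replicates on the left, OSKA + 4OHT replicates on the right and lines between classes. Most rows are blue (below the mean) on the left and red (above it) on the right, while *Cdk6* runs the other way and *Ccnd2* is highest in OSKA - 4OHT replicate 3 (1536 TPM).

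Among the D-type cyclins, which carry growth signals to CDK4 and CDK6, no change was called. *Ccnd1* stood at 336, 407 and 342 TPM without 4OHT and at 387, 375 and 295 TPM with it, a log2 fold change of -0.04 (95% interval -0.40 to 0.32, adjusted p = 0.902). Its groups overlapped, and the sign turned when OSKA - 4OHT replicate 2 or OSKA + 4OHT replicate 3 was left out. *Ccnd3* stood at 133, 203 and 136 TPM without 4OHT and at 164, 187 and 164 TPM with it, a log2 fold change of 0.15 (95% interval -0.31 to 0.61, adjusted p = 0.699). *Ccnd2*, on chromosome 6 (127125162 to 127152193, minus strand, GRCm38), was the most abundant member in both groups. Its level was 467, 1032 and 1536 TPM without 4OHT and 619, 613 and 497 TPM with it. The wells with 4OHT were close together, whereas those without it ranged from below to well above them. The log2 fold change was -0.66 (95% interval -1.65 to 0.34, adjusted p = 0.427), and with a well left out it ran from -1.13 (adjusted p = 0.0622, without OSKA - 4OHT replicate 1) to -0.28 (adjusted p = 0.697, without OSKA - 4OHT replicate 3). Summed over the 3 genes, the D-type cyclins came to 937, 1642 and 2014 TPM without 4OHT and to 1170, 1175 and 957 TPM with it, again with overlapping groups.

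Of the kinase partners of the D-type cyclins, *Cdk6* was called lower and *Cdk4* was not called. *Cdk6* encodes one of the kinases activated by the D-type cyclins and lies on chromosome 5 (3341485 to 3531008, plus strand, GRCm38). It stood at 27.6, 33.5 and 32.1 TPM without 4OHT and at 19.2, 17.7 and 17.1 TPM with it, so that every well with 4OHT was below every well without it. *Cdk6* fell by 0.77 on the log2 scale (standard error, SE, 0.162), with an adjusted p of 0.050 that was just under the threshold. It was 0.0502 with a pseudocount of 0.1 and 0.0533 with a robust variance prior. Parts of its long transcript are similar to transcripts of other genes over at most 2.0% of its length. *Cdk4*, the other kinase of the pair, stood at 315, 330 and 326 TPM without 4OHT and at 379, 414 and 244 TPM with it, and its log2 fold change was 0.06 (95% interval -0.44 to 0.56, adjusted p = 0.904), with a sign that turned under trimmed mean rescaling. The level of *Cdk4* was 11.4, 9.86 and 10.2 times that of *Cdk6* in the wells without 4OHT and 19.7, 23.3 and 14.3 times that of *Cdk6* in those with it. These ratios did not overlap between the groups, and the exact permutation test of 3 wells against 3 cannot give a 2-sided p under 0.1.

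Cyclin E and its kinase CDK2 act after the D-type cyclins. *Cdk2*, on chromosome 10 (128697939 to 128705031, minus strand, GRCm38), stood at 17.3, 15.7 and 12.1 TPM without 4OHT and at 30.3, 29.4 and 27.9 TPM with it. *Cdk2* rose, with a log2 fold change of 0.95 (SE 0.189, adjusted p = 0.0427), and its wells did not overlap. With trimmed mean rescaling its adjusted p was 0.0505, and under quantile normalization 0.0669. *Ccne1* stood at 21.5, 10.1 and 8.51 TPM without 4OHT and at 36.2, 31.9 and 21 TPM with it, where the lowest well with 4OHT was just below the highest well without it. Its log2 fold change was 1.2 (95% interval 0.26 to 2.15, adjusted p = 0.146). *Ccne2* stood at 11.1, 13.5 and 10.3 TPM without 4OHT and at 15.7, 20.7 and 17.4 TPM with it, with no overlap and a log2 fold change of 0.61 (95% interval 0.12 to 1.09, adjusted p = 0.154). The summed level of both cyclin E genes was 32.6, 23.6 and 18.8 TPM without 4OHT and 51.9, 52.6 and 38.5 TPM with it.

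**Figure D3:**
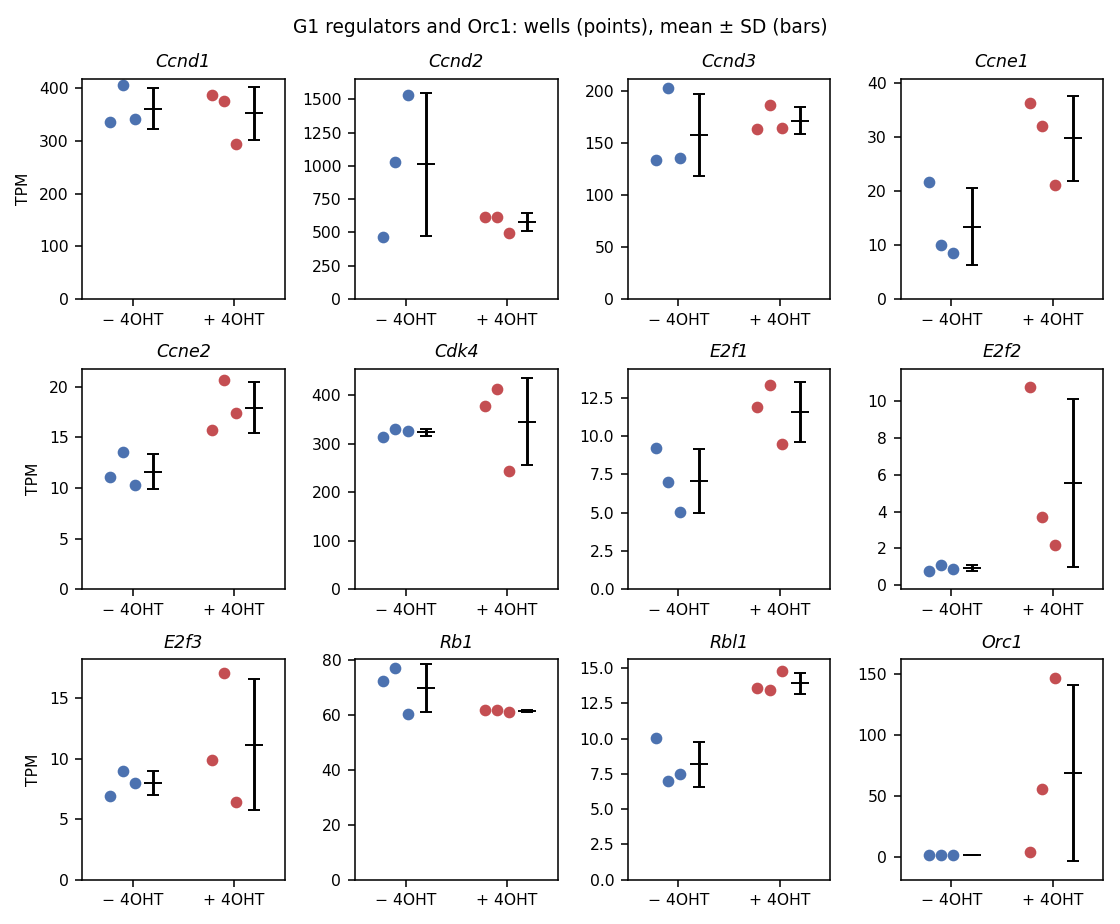
Level in TPM of 11 G1 regulators and of *Orc1* in the 3 wells of each group (blue, OSKA - 4OHT; red, OSKA + 4OHT), with bars for the mean and SD. The cyclin D wells overlap between the groups, while *Ccne2*, *E2f1*, *E2f2*, *Rbl1* and *Orc1* do not, and *Orc1* and *E2f2* spread widely among the wells with 4OHT.

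The E2F factors and pocket proteins stand between the kinases and the replication genes, and none of them was called. *E2f1* and *E2f2* encode activating E2F factors. *E2f1* stood at 9.22, 7.03 and 5.04 TPM without 4OHT and at 11.9, 13.3 and 9.49 TPM with it, a log2 fold change of 0.69 (adjusted p = 0.225). *E2f2* was the lowest member in both groups. It stood at 0.786, 1.08 and 0.888 TPM without 4OHT and at 10.8, 3.69 and 2.17 TPM with it, so that the groups did not overlap but the wells with 4OHT differed widely among themselves. Its log2 fold change was 1.83 (95% interval 0.40 to 3.25, adjusted p = 0.142). *E2f3*, another activator, overlapped between the groups, with a log2 fold change of 0.36 (adjusted p = 0.609) that ran from 0.011 without OSKA + 4OHT replicate 2 to 0.68 without OSKA + 4OHT replicate 3. *Rbl1*, which encodes the pocket protein p107 and is a known target of E2F factors, stood at 10.0, 6.99 and 7.50 TPM without 4OHT and at 13.6, 13.4 and 14.8 TPM with it, a log2 fold change of 0.75 (adjusted p = 0.102) with no overlap. *Rb1*, the retinoblastoma gene itself, stood at 72.1, 76.8 and 60.1 TPM without 4OHT and at 61.6, 61.5 and 60.8 TPM with it, a log2 fold change of -0.18 (95% interval -0.52 to 0.17, adjusted p = 0.545).

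In the licensing and helicase class, 3 of 15 genes were called higher (3.52% of all tested genes), all 15 had fold changes above 0 (59.3%) and in 9 the wells were higher without overlap (18.1%). The called genes were *Orc6*, *Cdc45* and *Gins2*. *Cdc45*, on chromosome 16 (18780447 to 18811987, minus strand, GRCm38), encodes the factor that turns the loaded ring into an active helicase. It stood at 3.17, 4.71 and 4.34 TPM without 4OHT and at 10.8, 12.1 and 13.8 TPM with it. Even the lowest well with 4OHT was thus far above the highest without it. *Cdc45* rose with a log2 fold change of 1.49 (SE 0.242, adjusted p = 0.0241). *Gins2*, on chromosome 8 (120578633 to 120589304, minus strand, GRCm38), encodes a subunit of the GINS complex, the partner of CDC45. It stood at 5.07, 7.56 and 3.62 TPM without 4OHT and at 19.9, 19.1 and 15.5 TPM with it, again without overlap, and rose with a log2 fold change of 1.71 (SE 0.295, adjusted p = 0.0288). *Gins1*, a second subunit of the same complex, stood at 7.33, 6.48 and 8.32 TPM without 4OHT and at 8.25, 7.96 and 10.7 TPM with it. Its log2 fold change was 0.26 (95% interval -0.28 to 0.80, adjusted p = 0.558), an interval that lies below that of *Gins2* (1.0 to 2.42).

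The origin recognition complex is represented by its largest and smallest subunits. *Orc6*, on chromosome 8 (85299632 to 85308278, plus strand, GRCm38), stood at 21, 19.6 and 14.2 TPM without 4OHT and at 41.0, 42.3 and 35.1 TPM with it. *Orc6* rose with a log2 fold change of 1.1 (SE 0.204, adjusted p = 0.0343) and no overlap. *Orc1*, on chromosome 4 (108579423 to 108614833, plus strand, GRCm38), stood at 1.49, 1.25 and 1.14 TPM without 4OHT and at 3.71, 55.7 and 147 TPM with it. The wells without 4OHT were low and alike, whereas those with 4OHT ran from a level near them to the highest level of any gene of this class in any well. The log2 fold change was 4.19, the largest of the 45 members, and it was not called (SE 1.23, adjusted p = 0.114). With a well left out it ran from 3.10 (without OSKA + 4OHT replicate 3) to 5.67 (without OSKA + 4OHT replicate 1). The adjusted p ran from 0.0240 in the latter fit to 0.290 without OSKA + 4OHT replicate 2, and was under 0.05 in 1 of the 6 fits. The gene has 5 annotated transcripts of 173 to 3014 bases, and the deposited values do not show which of them the TPM came from.

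CDC6 and CDT1 load the MCM ring, and geminin, the product of *Gmnn*, holds CDT1 back. *Cdc6* stood at 4.15, 4.54 and 5.60 TPM without 4OHT and at 6.70, 14.8 and 7.54 TPM with it, a log2 fold change of 0.88 (adjusted p = 0.215) with no overlap. This fold change ran from 0.54 without OSKA + 4OHT replicate 2 to 1.08 without OSKA + 4OHT replicate 1. *Cdt1* had a log2 fold change of 0.76 (adjusted p = 0.315) and *Gmnn* one of 0.74 (adjusted p = 0.30), and both overlapped between the groups. *Mcm10*, which helps CDC45 and GINS to activate the ring, stood at 8.02, 3.91 and 11.2 TPM without 4OHT and at 12.7, 19.0 and 19.2 TPM with it, a log2 fold change of 1.17 (adjusted p = 0.160). None of these 4 genes was called.

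The 6 subunits of the MCM ring are needed in equal number. None of the 6 was called, and their log2 fold changes ranged from 0.24 (*Mcm6*) to 1.07 (*Mcm5*). *Mcm5* stood at 11.9, 17.6 and 21.6 TPM without 4OHT and at 38.9, 39.1 and 29.1 TPM with it, a log2 fold change of 1.07 (adjusted p = 0.0720). *Mcm7* stood at 42.7, 46.3 and 26.8 TPM without 4OHT and at 82.0, 65.7 and 75.9 TPM with it, a log2 fold change of 0.97 (adjusted p = 0.0718). In both genes, and in *Mcm4* with a log2 fold change of 0.55 (adjusted p = 0.240), no well with 4OHT was as low as any well without it. *Mcm3* had a log2 fold change of 0.98 (adjusted p = 0.214) and its wells overlapped. *Mcm6* had the lowest fold change of the class, at 48.8, 47.5 and 50.2 TPM without 4OHT and 53.1, 79.5 and 45.1 TPM with it, a log2 fold change of 0.24 (95% interval -0.31 to 0.78, adjusted p = 0.595). This fold change ran from 0.0043 without OSKA + 4OHT replicate 2 to 0.41 without OSKA + 4OHT replicate 3. *Mcm2* stood at 79.2, 14.3 and 15.9 TPM without 4OHT and at 32.1, 33.7 and 29.7 TPM with it. A single well, OSKA - 4OHT replicate 1, was thus above every well with 4OHT, and the other wells without 4OHT were below them. Its log2 fold change was 0.26 (adjusted p = 0.846), and 1.05 without that well.

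Within a well, the highest of the 6 MCM levels was 6.67, 3.32 and 3.36 times the lowest in the wells without 4OHT and 2.55, 2.36 and 2.68 times the lowest in those with it. The RNA levels of the subunits thus spanned a narrower range in all 3 wells with 4OHT. The ratio of 6.67 came from *Mcm2* at 79.2 TPM, and *Mcm7* was the highest in OSKA + 4OHT replicates 1 and 3. The sum of the 6 levels was 251, 168 and 152 TPM without 4OHT and 309, 297 and 249 TPM with it. Here the groups overlapped, since OSKA - 4OHT replicate 1 was just above OSKA + 4OHT replicate 3. The *Mcm7* value is uncertain, because 72.8% of its longest transcript is similar (97.7% identity) to the transcript of *Gm5487*.

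**Figure D4:**
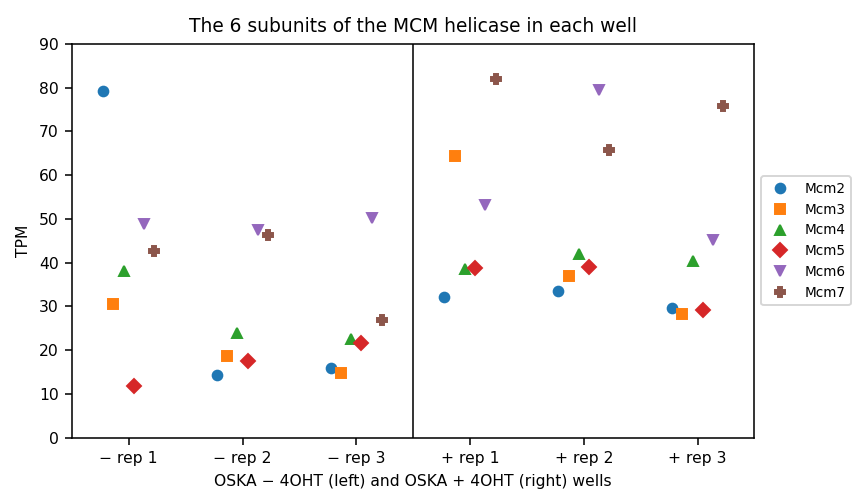
Level in TPM of the 6 MCM subunits in each well, with OSKA - 4OHT wells left of the line and OSKA + 4OHT wells right of it. The lowest subunit is at 11.9 to 14.9 TPM without 4OHT and at 28.3 to 33.7 TPM with it, and *Mcm2* stands apart at 79.2 TPM in OSKA - 4OHT replicate 1.

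Of the 10 clamp, polymerase and Okazaki fragment genes, 1 was called higher (3.52% of all tested genes), all 10 had fold changes above 0 (59.3%) and in 8 the wells were higher without overlap (18.1%). The called gene was *Lig1*, the DNA ligase that seals Okazaki fragments, on chromosome 7 (13277283 to 13311433, plus strand, GRCm38). It stood at 17.6, 24.3 and 11.8 TPM without 4OHT and at 47.5, 49.8 and 43.9 TPM with it. *Lig1* rose with a log2 fold change of 1.42 (SE 0.272, adjusted p = 0.0381), and its wells with 4OHT were close together. *Fen1*, the flap nuclease that trims the fragments before LIG1 joins them, stood at 11.4, 11.1 and 12.1 TPM without 4OHT and at 21.1, 19.0 and 15.3 TPM with it, a log2 fold change of 0.65 (adjusted p = 0.119) without overlap.

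Polymerase alpha and its primase start each strand, polymerase delta extends the lagging strand and polymerase epsilon the leading strand. *Pola1*, the catalytic subunit of polymerase alpha, stood at 7.81, 11.4 and 7.74 TPM without 4OHT and at 19.7, 43.0 and 17.4 TPM with it, a log2 fold change of 1.42 (adjusted p = 0.0893). *Pold1*, that of polymerase delta, stood at 6.13, 4.78 and 9.31 TPM without 4OHT and at 13.3, 22.1 and 16.4 TPM with it, a log2 fold change of 1.31 (adjusted p = 0.0669). In both, and in the primase gene *Prim1* with a log2 fold change of 0.80 (adjusted p = 0.145), the wells of the groups did not overlap, but none was called. *Pole*, that of polymerase epsilon, overlapped, at 11.5, 4.15 and 4.89 TPM without 4OHT and 22.9, 6.65 and 8.61 TPM with it, a log2 fold change of 0.78 (adjusted p = 0.490). In each group its replicate 1 was the highest well, and the log2 fold change ran from 0.27 without OSKA + 4OHT replicate 1 to 1.2 without OSKA - 4OHT replicate 1.

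PCNA is the ring-shaped clamp that tethers the polymerases, and replication factor C loads it. The clamp loader genes *Rfc2*, *Rfc3* and *Rfc4* had log2 fold changes of 0.89, 0.74 and 0.98 (adjusted p = 0.126, 0.0700 and 0.134), each without overlap. *Pcna*, the most abundant replication gene among the members outside the G1 class, had the lowest fold change of its class. It stood at 275, 236 and 246 TPM without 4OHT and at 330, 352 and 196 TPM with it, so that OSKA + 4OHT replicate 3 was the lowest and the other wells with 4OHT the highest of all 6. Its log2 fold change was 0.17 (95% interval -0.40 to 0.74, adjusted p = 0.723), and it ran from 0.011 without OSKA + 4OHT replicate 2 to 0.43 without OSKA + 4OHT replicate 3. The value is uncertain, because 51.4% of its longest transcript is similar (99.2% identity) to the pseudogene *Pcna-ps2*.

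Of the 4 genes of deoxynucleotide supply, *Rrm2* and *Tk1* were called higher (3.52% of all tested genes), and *Tyms* and *Rrm1* were not called. Ribonucleotide reductase makes deoxynucleotides from ribonucleotides, and RRM2 is the small subunit that is made mostly in S phase. *Rrm2*, on chromosome 12 (24708241 to 24714146, plus strand, GRCm38), stood at 117, 112 and 78.9 TPM without 4OHT and at 202, 228 and 192 TPM with it. *Rrm2* rose with a log2 fold change of 1.03 (SE 0.184, adjusted p = 0.0320) and no overlap, although 19.1% of its longest transcript is similar to that of *Gm48455*. *Rrm1*, the large subunit, stood at 217, 216 and 180 TPM without 4OHT and at 214, 169 and 169 TPM with it, a log2 fold change of -0.15 (95% interval -0.51 to 0.21, adjusted p = 0.598). The level of *Rrm2* was 0.541, 0.517 and 0.438 times that of *Rrm1* without 4OHT and 0.943, 1.35 and 1.13 times that of *Rrm1* with it, so that *Rrm2* was below *Rrm1* in all 3 wells without 4OHT and above it in 2 of the 3 wells with 4OHT.

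*Tk1*, thymidine kinase, which recovers thymidine for DNA synthesis, lies on chromosome 11 (117815526 to 117826092, minus strand, GRCm38). It stood at 22.7, 31.1 and 36.9 TPM without 4OHT and at 75.2, 89.3 and 55.1 TPM with it. *Tk1* rose with a log2 fold change of 1.26 (SE 0.258, adjusted p = 0.0457) and no overlap. *Tyms*, thymidylate synthase, which makes thymidylate anew, stood at 61.9, 56.4 and 21.2 TPM without 4OHT and at 65.5, 54.5 and 56.7 TPM with it. Its wells lay close together except for OSKA - 4OHT replicate 3, and its log2 fold change was 0.48 (95% interval -0.51 to 1.46, adjusted p = 0.559).

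**Figure D5:**
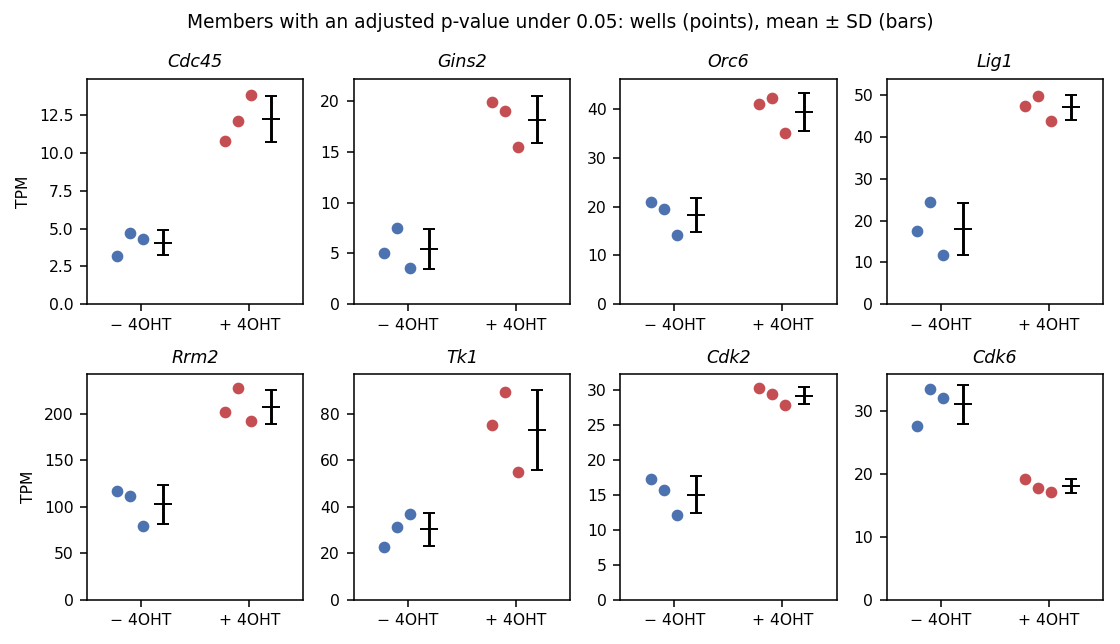
Level in TPM of the 8 called members in the 3 wells of each group (blue, OSKA - 4OHT; red, OSKA + 4OHT), with bars for the mean and SD. The wells of the groups do not overlap in any panel, and *Cdk6* is the member that is lower with 4OHT (17.1 to 19.2 TPM against 27.6 to 33.5 TPM).

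None of the 3 genes of the replication checkpoint was called or reached an unadjusted p under 0.05 by limma, and the wells overlapped in all 3. *Chek1*, the kinase that holds back late origins and mitosis when forks stall, stood at 11.6, 19.4 and 35.0 TPM without 4OHT and at 33.7, 25.6 and 41.5 TPM with it, a log2 fold change of 0.71 (95% interval -0.28 to 1.71, adjusted p = 0.383). This ran from 0.33 without OSKA - 4OHT replicate 1 to 1.11 without OSKA - 4OHT replicate 3. *Clspn*, which encodes claspin, the adaptor through which CHEK1 is activated, stood at 3.36, 5.65 and 6.85 TPM without 4OHT and at 8.25, 13.5 and 5.62 TPM with it, a log2 fold change of 0.70 (95% interval -0.27 to 1.67, adjusted p = 0.379). This fold change ran from 0.39 without OSKA + 4OHT replicate 2 to 0.99 without OSKA + 4OHT replicate 3. *Brca1*, which repairs broken forks by recombination, stood at 16.3, 7.55 and 11.6 TPM without 4OHT and at 11.9, 14.8 and 9.23 TPM with it. Its log2 fold change was 0.06 (95% interval -0.74 to 0.85, adjusted p = 0.942), and its sign turned under both rescalings.

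Ordered by mean level, *Ccnd2*, *Ccnd1*, *Cdk4* and *Pcna* were the 4 most abundant members in both groups. With 4OHT their means were 577 ± 68.7, 352 ± 50.2, 345 ± 89.8 and 293 ± 84.6 TPM (SD, n = 3), so the last 3 lay within each other's spread. *Rrm2* followed with 207 ± 18.5 TPM and *Rrm1* with 184 ± 25.6 TPM, in the opposite order to the wells without 4OHT, where *Rrm2* was at 103 ± 20.8 TPM and *Rrm1* at 204 ± 20.9 TPM. Several of the called members were low in both groups. *Cdc45* went from 4.08 ± 0.803 to 12.2 ± 1.54 TPM and *Gins2* from 5.42 ± 2.0 to 18.2 ± 2.33 TPM (SD, n = 3).

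Another 70 genes of the same steps, listed as further G1/S regulators, fork factors, polymerase subunits, nucleotide enzymes, checkpoint genes and fork-linked histone chaperones, were all tested. Of these, 6 were called higher and 1 lower, beside 3.52% and 1.97% of all tested genes. Fold changes were above 0 for 59 of them, beside 59.3% of all tested genes, and the median was 0.60. *Mybl2*, a transcription factor of the E2F programme, rose from 4.13, 5.96 and 3.01 TPM without 4OHT to 54.8, 58.2 and 49.5 TPM with it, a log2 fold change of 3.53 (SE 0.261, adjusted p = 0.00361). This was larger than that of any called member. *Wdhd1*, which ties polymerase alpha to the helicase, rose from 5.80, 4.81 and 4.34 to 12.7, 18.7 and 16.2 TPM (adjusted p = 0.0186). Further genes called higher included *Dbf4*, the activating subunit of the CDC7 kinase that fires origins (log2 fold change 0.97), *Orc2*, a subunit of the origin recognition complex (1.1), and the single-strand binding subunit *Rpa1* (0.84). *Hus1*, a subunit of the clamp that signals to the checkpoint, was the gene called lower, at 46.6, 40.9 and 43.2 TPM without 4OHT and 17.7, 19.1 and 19.0 TPM with it (log2 fold change -1.21, adjusted p = 0.0106). Among 15 genes listed under G2 and mitosis, 7 were called higher, beside 3.52% of all tested genes, and the median log2 fold change was 1.01.

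The members with E2F letters in a promoter window had a median log2 fold change of 0.96 (16 genes, 16 above 0), those with a window but no match 0.69 (19 genes, 17 above 0) and those without a window 0.58 (10 genes, 7 above 0). Of the called members with a window, *Cdk2* and *Lig1* held a match, while *Orc6*, *Cdc45*, *Rrm2*, *Tk1* and *Cdk6* held none. Among tested genes that are not members, the median was 0.25 in 404 genes with the letters and 0.15 in 10120 genes without them, where 67.3% and 60.4% were above 0 and 2.48% and 3.85% were called higher. The letters thus went with no larger share of calls outside the members. These values describe the windows and were not tested.

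Epithelial and pluripotency markers were mostly higher with 4OHT, fibroblast and macrophage markers mostly had fold changes below 0, and no endothelial or neural marker was called. Of all tested genes, 3.52% were called higher and 1.97% lower, 59.3% had fold changes above 0, and 18.1% were higher and 10.0% lower without overlap. Of 8 fibroblast markers, 2 were called lower (*Col1a2* and *Pdgfrb*), 7 had fold changes below 0, 6 were lower without overlap, and the sum of all 8, most of it from *Col1a1* and *Col1a2*, was 2976 to 3630 TPM without 4OHT and 2077 to 2404 TPM with it. *Thy1*, on the same list, stood at 198, 208 and 133 TPM without 4OHT and at 222, 268 and 389 TPM with it (log2 fold change 0.69, adjusted p = 0.203), and *Pdgfra* had a log2 fold change of -0.12 (adjusted p = 0.812). Of 7 macrophage markers, 1 was called lower (*Lyz2*), with a sum over all 7, in which *Lyz2* was the largest part, of 143 to 169 TPM without 4OHT and 83.5 to 105 TPM with it. Fold changes were below 0 for 6 of the 7, the exception being *Cd68* with 0.34 (adjusted p = 0.470). Of 5 epithelial markers, 3 were called higher, with sums of 31.1 to 71.7 and 150 to 166 TPM. Of 7 pluripotency markers (6 tested), 4 were called higher, with sums over all 7 of 2.87 to 3.69 and 37.5 to 52.9 TPM. Some of those called, *Dppa5a* among them, averaged under 1 TPM without 4OHT and passed the filter only through the wells with it. None of 5 endothelial markers (2 tested) or 5 neural markers (3 tested) was called, with sums of 21.4 to 28.9 and 69.1 to 80.4 TPM without 4OHT and of 28.1 to 37.6 and 83.3 to 97.2 TPM with it. *Dppa5a*, *Utf1* and *Lin28a* were listed at 0 in every well without 4OHT. The part of these shifts in the values of the replication genes was not tested. In bulk RNA, a different share of cells in S phase or of a cell type cannot be told apart from a different level of RNA per cell. By DNA content, the paper reported a smaller G1 share with AKT activation on every day it measured. It reported a larger S share on an earlier day than that of this RNA. The part of these shares in the RNA values was not tested.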

How the data were processed

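Total RNA of 6 wells was made into stranded polyA libraries. The authors trimmed the reads with Trim Galore, quantified them with Salmon and deposited TPM values per gene and well. The versions, the annotation and the strand setting were not given in the sources used here. The deposited table also holds the authors' own comparison (log fold change, average level, F statistic and p-value from edgeR), which was not used. Symbols and positions were matched by Ensembl identifier to GENCODE release 21 for mouse (GRCm38), which need not be the authors' release.

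Wells were grouped by the treatment in the labels. The authors' count model could not be applied to TPM, so log2(TPM + 0.5) was fitted with limma 3.58.1 in R 4.3.3 (trend, no block), for genes whose mean reached 1 TPM, with Benjamini-Hochberg adjustment over 15382 genes. The fit was tested on simulated data. With 3 wells against 3, the smallest 2-sided exact permutation p is 0.1. Similar transcripts (at least 95% identity over 100 bases) were searched with BLAST 2.17.0, and promoters with Python 3.11.15 and pandas 2.3.3.

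The 45 members and the other lists were chosen with earlier results of these data known. By the rule for named genes, each member could be named, and values in every well were given for called members, for the member of each class with the smallest p and that with the lowest fold change, and for the D-type cyclins. Per-well values of further members were added after they had been seen. Of the other lists, only called genes were to be named. The uncalled markers named (Col1a1, Thy1, Pdgfra, Cd68, Utf1 and Lin28a) were added after their values had been seen. The result of 1 called gene is not reported here. Alternatives were other pseudocounts, filters, scalings and variance models, a replicate block, leaving out each well, and a shorter promoter window.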

Additional observations from a re-analysis of the deposited data

How the results depend on the processing

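Directions were mostly kept, whereas calls were often lost. Apart from leaving out wells, 446 of 449 fold changes of members kept their direction under the alternatives. The exceptions were *Brca1*, at -0.053 with trimmed mean rescaling and -0.10 with quantile normalization, and *Cdk4*, at -0.059 with the former. With a well left out, 261 of 270 kept it, and the ranges that crossed 0 were those of *Ccnd1* (-0.11 to 0.081), *Cdk4* (-0.091 to 0.29), *Mcm2* (-0.17 to 1.05), *Tyms* (-0.010 to 0.75) and *Brca1* (-0.22 to 0.31). The median of the members was 0.64 with trimmed mean rescaling and 0.60 with quantile normalization, and 0.67 to 0.86 with a well left out. Members called higher numbered 3 without a filter on low values, 2 without a variance trend, and 0 to 2 with a well left out. Over all tested genes, those called higher numbered 415 of 24191, 435 of 15382, and 112 to 318 of at least 15243 in these fits. Members called lower numbered 0 with a pseudocount of 0.1, without the filter, without a trend, with a robust prior and with any well left out. At an unadjusted p under 0.05 by limma, 17 to 26 members were higher and 1 or 2 lower with a well left out. The share of all tested genes at this threshold was not taken in those fits, so these counts cannot be set against it. Over the whole table, 175 to 465 genes were called with a well left out, against 845. The wider list had 2 genes called higher without a trend and 1 to 3 with a well left out, against 6. E2F letters were found in 10 members in the 200 bases up to the start, against 16 in the longer window, which the shorter window cuts by construction.

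With the replicate number as a block, 47 genes were called over the whole table, 0 members in either direction and 1 gene of the wider list. At an unadjusted p under 0.05 by limma, 26 members were higher and 1 lower in this fit. The share of all tested genes was not taken there either. The deviations of wells with the same number correlated by 0.0235, 0.0341 and 0.0837, so the numbers were not taken to pair the wells, although 5 of 6 wells correlated best with their own number. TPM keep no depth, which leaves the counting error of low members such as *E2f2* and *Orc1* unknown. An adjusted p above 0.05 does not show that a gene was unchanged.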
